A study of Mus musculus with 54 samples.

Results

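The middle of 3 oral doses of di-isononyl phthalate (DINP), 15 mg/kg bw/d, was compared with the control in the liver transcriptome of males fed a high-fat diet. All 27 mice labelled with that dose or as control entered the comparison, 13 and 14 mice, out of 54 in the study. Of the 20162 rows of the expression table, 11423 had a mean value of 1 or more over these 27 mice and were tested. No expression change was used to choose them. The lowest mean kept was 1.00019 and the highest left out was 0.999878.

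All mice were male wild-type C57BL/6J, were housed singly and received the high-fat diet (HFD) ad libitum from the age of 8 weeks. For 20 weeks they were given DINP in gelatin pellets at a low dose of 1.5 (13 mice), a middle dose of 15 (13 mice) or a high dose of 150 (14 mice), all in mg/kg of body weight per day and written mg/kg below, and the 14 control mice received a placebo pellet. The control group of this comparison is therefore a group of HFD-fed mice, and no chow-fed mouse is part of it. The medial liver lobe was taken after CO2 euthanasia and perfusion, its total RNA was sequenced with a 3′ mRNA-Seq kit, and the hour of sampling is not given in the sources used here. Each replicate is a separate mouse. The values were read as TPM, a transcript abundance relative to all transcripts of the library, that the authors rounded and then scaled by a size factor for each mouse. The reads behind a value are therefore unknown, and no counting interval is given.

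DINP is a plasticiser that is cleaved to a monoester, and monoesters of phthalates bind peroxisome proliferator-activated receptors (PPARs). In the liver, PPARα switches on the genes that take up fatty acids and oxidise them in mitochondria and peroxisomes, and it is active during fasting and fat feeding. The liver also makes most plasma proteins, turns over amino acids, stores glycogen and clears drugs. Many of its enzymes follow the daily clock.

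Throughout, log2FC is the difference of group means of log2(value + 1), dose minus control, with its standard error (SE). Because 1 is added, changes of weakly expressed genes are understated. The adjusted p is from limma, fitted to all 54 mice, with Benjamini-Hochberg adjustment over the 11423 rows. A differentially expressed gene (DEG) has an adjusted p under 0.05 and a log2FC beyond 0.5 in either direction. Levels are not compared between genes, since reads from 3′ ends were divided by transcript length.

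Before any gene is described, 6 of the 13 mice at 15 mg/kg have to be set apart. On the first principal component of the 54 livers, which held 19.9% of the variance over 6928 rows averaging 5 or more, replicates 4 to 9 of the dose group scored from 27.1 to 45.1. The other 7 mice of the same group scored from -11.8 to 7.11. Control mice scored from -12.1 to 4.79, except replicate 1 at 27.1, and at 150 mg/kg replicate 10 scored 22.0. These 6 mice carry consecutive replicate numbers, and the labels give no batch or date for them. The boundary of 20 was set after the scores were seen. Most lists and genes below are therefore given with all 13 mice and again without these 6, as 7 against 14 mice. They were not averaged or tested as a group of their own.

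**Figure D1:**
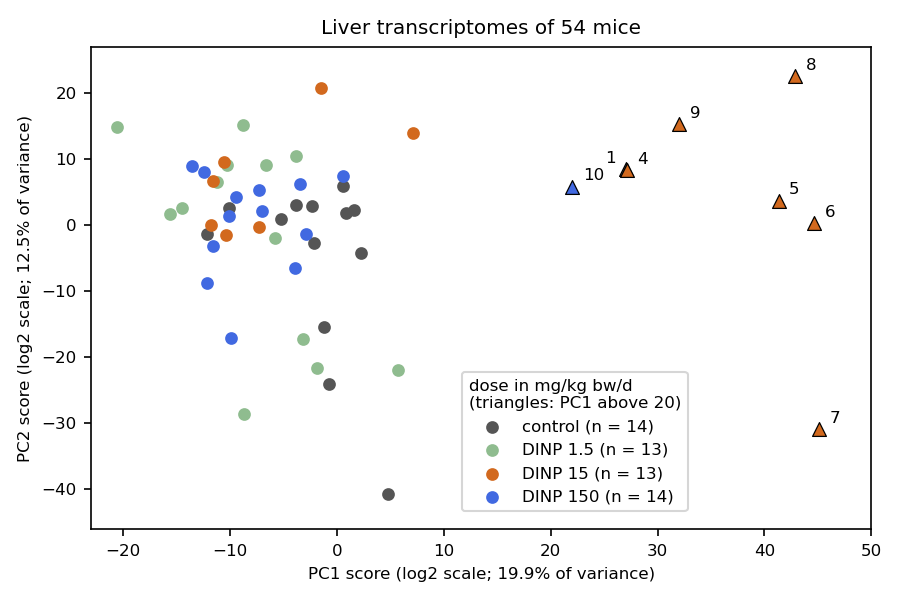
Scores of the 54 liver transcriptomes on the first (x) and second (y) principal components of log2(value + 1), coloured by dose in mg/kg, with triangles for mice above 20 on the first component. Replicates 4 to 9 at 15 mg/kg lie at 27.1 to 45.1 on the x axis, while the other 7 mice of that dose lie between -11.8 and 7.11.

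The sums of values per mouse were 937882 ± 67603 (SD, n = 14) in the control group and 972178 ± 58681 (SD, n = 13) at 15 mg/kg, a difference within the spread (2-sided permutation test with 100000 resamples, p = 0.176). Genes above 0 numbered 12935 ± 469 and 12732 ± 385 per mouse (p = 0.237). The replicates that stood apart ranged over the whole of their group in both measures. Base composition and transcript length moved with the comparison. The median GC content of transcripts was 49.1% over all rows, 47.5% over the higher DEGs and 52.8% over the lower DEGs, and the median length was 3062, 1609 and 2660.5 bases. From the 20% of rows lowest in GC content to the 20% highest, the median log2FC went from 0.056 to -0.088. Without replicates 4 to 9 it went from 0.056 to -0.090. From the shortest 20% of transcripts to the longest 20%, the median log2FC went from 0.039 to -0.023 with all mice. Without replicates 4 to 9 it went from 0.0017 to 0.026. Per mouse, the correlation with transcript length (rho) was -0.149 to -0.036 in replicates 4 to 9. In the other 7 dosed mice it was 0.029 to 0.118, with no overlap. Control mice had -0.110 to 0.134, the lowest in replicate 1. The correlations with GC content overlapped between these 2 sets of dosed mice. With the trends on GC content and length removed in each mouse, there were 166 higher and 191 lower DEGs, of which 149 and 152 were among those of the direct fit. The part of base composition and length in single genes was not tested.

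At 15 mg/kg, 213 genes were upregulated and 214 downregulated DEGs (1.86% and 1.87% of all rows tested). With an adjusted p under 0.05 and no limit on the log2FC, 866 rows were higher (7.58%) and 756 lower (6.62%). The changes were small: the middle 50% of the upregulated DEGs had a log2FC of 0.55 to 0.73, 10 exceeded 1, and 6 of the downregulated DEGs fell by more than 1. Of the upregulated DEGs, 182 were protein-coding (85.4%) and 19 pseudogenes (8.92%), and of the downregulated DEGs 168 (78.5%) and 24 (11.2%). Over all rows tested these shares were 88.0% and 3.92%. Without replicates 4 to 9 there were 84 higher and 71 lower DEGs (0.735% and 0.622%), and 302 and 296 rows with an adjusted p under 0.05 (2.64% and 2.59%). Of the 213 and 214 DEGs from all mice, 200 and 200 kept their direction, 60 and 42 kept an adjusted p under 0.05, and 34 and 21 remained DEGs. Their median log2FC went from 0.61 to 0.34 and from -0.60 to -0.30.

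**Figure D2:**
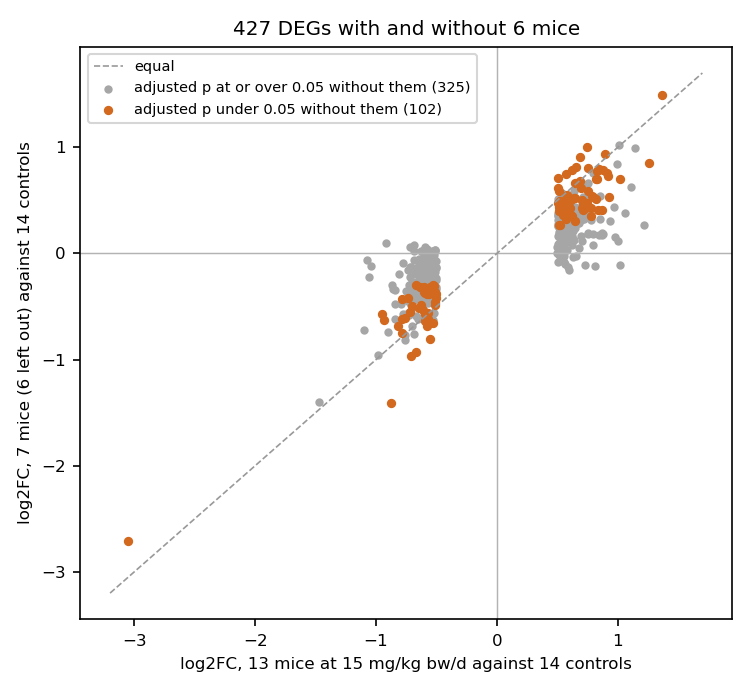
Log2FC of the 427 DEGs from all 13 mice (x) and from the 7 mice left without replicates 4 to 9 (y), each against the 14 control mice, with the 102 genes that kept an adjusted p under 0.05 marked. Most points lie on the same side of 0 on both axes but nearer to 0 on the y axis.

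The doses were also set against each other directly, without control mice. Between 15 and 1.5 mg/kg, 437 DEGs were higher and 372 lower at 15 mg/kg (3.83% and 3.26%), and 1254 and 1183 rows had an adjusted p under 0.05 (11.0% and 10.4%). Between 15 and 150 mg/kg, 384 were higher and 384 lower (3.36% and 3.36%), with 1167 and 1115 at an adjusted p under 0.05 (10.2% and 9.76%). Without replicates 4 to 9 these totals of 809 and 768 DEGs came to 123 and 318. Rows with an adjusted p under 0.05 then numbered 236 and 223 against 1.5 mg/kg (2.07% and 1.95%) and 450 and 478 against 150 mg/kg (3.94% and 4.18%). All these contrasts share the mice at 15 mg/kg. Against the same control mice, 80 rows were higher (0.700%) and 61 lower (0.534%) at 1.5 mg/kg, and 163 higher (1.43%) and 78 lower (0.683%) at 150 mg/kg, with an adjusted p under 0.05. Counts of list members at these doses are read against these smaller shares.

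Genes whose mice did not overlap between the groups came first. The ranges of the 27 mice were separate for 2 genes that were higher (0.0175% of rows) and 3 that were lower (0.0263%) at 15 mg/kg. Sec62, a part of the channel that moves new proteins into the endoplasmic reticulum (chromosome 3, 30792875 to 30821263, plus strand, GRCm38), had values between 57.3 and 72.3 (median 67.2) in the control group and between 75.3 and 151 (median 104) at 15 mg/kg. Every mouse of the dose group was above every control mouse (log2FC 0.64, SE 0.071, adjusted p = 3.17e-08), and the log2FC without replicates 4 to 9 was 0.52 (adjusted p = 2.57e-06). Park7 encodes DJ-1, a protein that guards against oxidative stress, and was named after its values were seen (chromosome 4, 150897133 to 150914437, minus strand). It lay between 174 and 202 (median 194) in the control group and between 206 and 259 (median 220.3) at 15 mg/kg. The groups touched no further than 202.5 and 205.9, so the separation was narrow and the change small (log2FC 0.24, SE 0.055, adjusted p = 0.00180), with 0.18 (adjusted p = 0.0851) without the 6 mice.

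Lamtor1 encodes the lipid-anchored subunit that holds the Ragulator complex on lysosomes. It was between 116 and 154 (median 130.2) in the control group and between 71.5 and 109.9 (median 88.5) at 15 mg/kg, and all dosed mice were below all control mice (log2FC -0.51, SE 0.069, adjusted p = 1.23e-06). The loss of the 6 mice changed little, with a log2FC of -0.49 (adjusted p = 0.000226). Slc25a22, a mitochondrial glutamate carrier, was between 68.0 and 104 (median 75.6) in the control group and between 36.1 and 67.4 (median 53.1) at 15 mg/kg (log2FC -0.61, SE 0.090, adjusted p = 4.87e-06), again with no overlap, and the log2FC without the 6 mice was -0.54 (adjusted p = 0.000928). Psmd11, a subunit of the lid of the proteasome, was between 109 and 146 (median 124) in the control group and between 61.9 and 108 (median 85.9) at 15 mg/kg (log2FC -0.51, SE 0.068, adjusted p = 6.00e-07). Here too the groups were separate, and -0.36 (adjusted p = 0.00140) was left without replicates 4 to 9.

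Next came the genes with the smallest p, whose groups overlapped in a few mice. Rpl4, a protein of the large ribosomal subunit, was between 75.3 and 115 (median 89.4) in the control group and between 101 and 257 (median 147) at 15 mg/kg (log2FC 0.83, SE 0.096, adjusted p = 6.60e-08), and 12 of 13 dosed mice lay above the highest control mouse. Pin4, a peptidyl-prolyl isomerase of the parvulin family, was between 10.6 and 26.4 (median 15.7) in the control group and between 23.4 and 86.2 (median 38.7) at 15 mg/kg (log2FC 1.25, SE 0.16, adjusted p = 1.64e-07), with 10 of 13 above all control mice. Rbis, which takes part in ribosome biogenesis, was between 42.1 and 68.6 (median 51.9) in the control group and between 65.3 and 171 (median 91.5) at 15 mg/kg (log2FC 1.02, SE 0.12, adjusted p = 8.22e-08). All 3 held with the 7 remaining mice, at 0.71 (adjusted p = 2.47e-05), 0.85 (adjusted p = 0.000732) and 0.70 (adjusted p = 0.000419). Psma4, an α ring subunit of the proteasome core, had a log2FC of 0.75 and 0.47 (adjusted p = 0.000249) without the 6 mice. Xylb encodes xylulokinase, which feeds xylulose into the pentose phosphate pathway. Its values were between 11.0 and 16.3 (median 13.6) in the control group and between 14.2 and 32.1 (median 21.5) at 15 mg/kg (log2FC 0.65, SE 0.080, adjusted p = 1.36e-07), and the log2FC was about as large without the 6 mice, at 0.66 (adjusted p = 2.57e-06).

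Among the lower genes, Rab4b, a GTPase of endosomal recycling, was between 19.1 and 37.4 (median 24.8) in the control group and between 12.0 and 20.4 (median 15.2) at 15 mg/kg (log2FC -0.64, SE 0.087, adjusted p = 1.23e-06). Calu encodes a calcium-binding protein of the endoplasmic reticulum and was between 29.3 and 50.9 (median 41.0) in the control group and between 20.5 and 39.9 (median 28.6) at 15 mg/kg (log2FC -0.57, SE 0.086, adjusted p = 7.34e-06). Entr1, which acts in endosomal sorting, was between 17.7 and 32.1 (median 23.3) in the control group and between 11.7 and 20.4 (median 14.3) at 15 mg/kg (log2FC -0.60, SE 0.093, adjusted p = 1.16e-05). Each was about as low without replicates 4 to 9, with -0.51 (adjusted p = 0.00184), -0.61 (adjusted p = 7.68e-05) and -0.64 (adjusted p = 0.000477). Iba57, a factor of mitochondrial iron-sulphur cluster assembly, had a log2FC of -0.76 with all mice and -0.60 (adjusted p = 0.00278) without the 6. Vps72, a subunit of a chromatin remodeller that exchanges a histone variant, and Nfatc3, a calcineurin-regulated transcription factor, went from -0.78 to -0.43 and from -0.60 to -0.32. Their values moved toward 0 by more than those of Rab4b, Calu and Entr1.

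Several of the genes with the largest log2FC overlapped other genes or depended on the 6 mice. Gm20708, a predicted gene that shares its strand and position with Syngr2 and Afmid (chromosome 11, 117809668 to 117839904, plus strand), was between 0 and 47.3 (median 14.8) in the control group and between 0 and 29.5 (median 0) at 15 mg/kg (log2FC -3.05, SE 0.49, adjusted p = 1.67e-05), and without the 6 mice it was -2.71 (adjusted p = 0.00375). The median of the dosed mice was 0, and the lowest control mouse was at 0 as well. Rcc1, the nucleotide exchange factor of Ran (log2FC -0.94, SE 0.14, adjusted p = 4.87e-06), overlaps Snhg3, a small nucleolar RNA host gene, on the same strand, and was still -0.62 (adjusted p = 0.00759). Fdx2, a mitochondrial ferredoxin at low values, went from 1.02 to -0.11 (adjusted p = 0.866), a change of sign, and had an adjusted p of up to 0.0600 without dosed replicate 5, dosed replicate 6, dosed replicate 8 or dosed replicate 9. Of the 293 genes chosen by the naming rule, 91 overlap another annotated gene, 36 of them on the same strand, and whether reads of such pairs were told apart is not given in the sources used here.

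**Figure D3:**
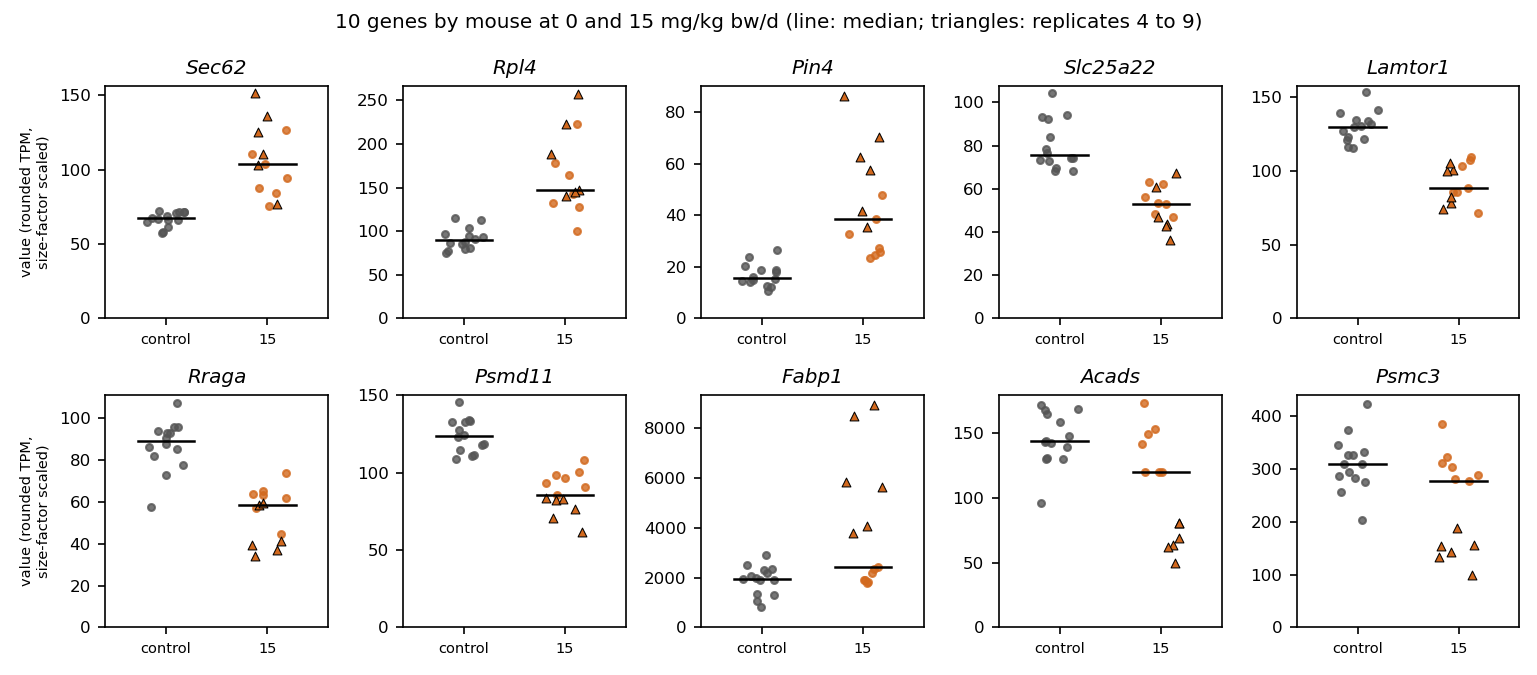
Values (rounded TPM divided by a size factor) of 10 genes in each of 14 control mice and 13 mice at 15 mg/kg, with triangles for replicates 4 to 9 and a line at the median of each group. Sec62, Lamtor1, Slc25a22 and Psmd11 separate the groups in every mouse, whereas for Fabp1, Acads and Psmc3 the triangles lie away from both the other dosed mice and the control mice.

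Gene lists were then read one by one, each as counts of members with an adjusted p under 0.05 beside the 7.58% higher and 6.62% lower of all rows, and with its median log2FC beside 0.00038 over all rows. Cytosolic ribosomal proteins, which form the 2 subunits of the ribosome, had the highest count. Of 84 tested, 38 rose and 0 fell, with a median log2FC of 0.33. Both subunits took part, with 23 of 50 large-subunit proteins (median 0.34) and 15 of 34 small-subunit proteins (median 0.33). Without replicates 4 to 9, 8 of 84 were higher and 4 lower beside 2.64% and 2.59% of all rows, and the median was 0.037.

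Among the ribosomal proteins that also passed without these mice were Rpl4, already described, and Rpl26, which was between 115 and 196 (median 160.1) in the control group and between 168 and 394 (median 253) at 15 mg/kg (log2FC 0.71, SE 0.098, adjusted p = 1.78e-06) and 0.47 (adjusted p = 0.00320) without the 6 mice. Rps25 and Rpl24 had a log2FC of 0.71 and 0.52 with all mice, and 0.43 (adjusted p = 0.0416) and 0.26 (adjusted p = 0.0283) without the 6. Rpl14 went from 0.57 to 0.29 (adjusted p = 0.0620). In the direct contrasts, 50 of the 84 were higher and 2 lower than at 1.5 mg/kg, and 43 were higher and 0 lower than at 150 mg/kg, with all 13 mice. These counts were 7 and 0, and 7 and 2, without the 6 mice. Of all rows, 11.0% and 10.4% were higher and lower than at 1.5 mg/kg, and 10.2% and 9.76% than at 150 mg/kg. Without the 6 mice these shares were 2.07% and 1.95%, and 3.94% and 4.18%. Against the same control mice, 3 of the 84 rose and 0 fell at 1.5 mg/kg, beside 0.700% and 0.534% of all rows, and 1 rose and 0 fell at 150 mg/kg, beside 1.43% and 0.683%.

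Messengers of ribosomal proteins begin, as a class, with a pyrimidine tract at their 5′ end, through which their translation answers to mTORC1. Promoter sequences (RefSeq, GRCm38.p6, 250 bases before to 50 after the start) were at hand for 8378 tested genes. The letters CTTTC lay within 15 bases of an annotated start, on the coding strand, in 18 of the 61 ribosomal proteins with a promoter and in 4.55% of all genes, beside 11 of 142 higher and 9 of 147 lower DEGs. The promoter of Rpl38 (chr11:114668330-114668629, plus strand) is shown as an example chosen after its values were seen, with CTTTC at the annotated start in capitals.
Rpl38: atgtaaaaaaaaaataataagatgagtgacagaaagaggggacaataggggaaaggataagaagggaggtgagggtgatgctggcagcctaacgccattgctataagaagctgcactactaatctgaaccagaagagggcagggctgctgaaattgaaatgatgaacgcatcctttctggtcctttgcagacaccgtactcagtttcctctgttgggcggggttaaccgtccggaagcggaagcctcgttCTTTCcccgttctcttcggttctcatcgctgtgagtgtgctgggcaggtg
Rpl38 was between 116 and 343 (median 169.9) in the control group and between 133 and 568 (median 259) at 15 mg/kg (log2FC 0.66, SE 0.19, adjusted p = 0.0122). Without the 6 mice the log2FC was -0.020 (adjusted p = 0.964). The match of letters is a description of the promoter and was not set against the expression values by a test.

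Proteins of the mitochondrial ribosome, which translate the few messengers of the organelle, rose in 16 of 77 and fell in 3, with a median log2FC of 0.12. Mrpl42 was between 33.6 and 62.8 (median 48.1) in the control group and between 49.9 and 144 (median 72.5) at 15 mg/kg (log2FC 0.83, SE 0.12, adjusted p = 4.87e-06), and 0.41 (adjusted p = 0.0114) without the 6 mice. Without them 2 members were higher and 4 lower. Translation factors followed with 11 of 57 higher and 3 lower (5 and 2 without the 6 mice), led by Eif3m, a subunit of initiation factor 3 (0.62 with and 0.35 without them). The elongation factor Eef2 fell with all mice (-0.39, adjusted p = 0.0122) and was at -0.015 (adjusted p = 0.948) without the 6. Of 38 genes of ribosome biogenesis, 2 rose and 3 fell, and 1 and 2 without the 6. Npm1, the nucleolar chaperone nucleophosmin, was the higher one that held, with 0.53 and 0.40 (adjusted p = 0.0137).

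Oxidative phosphorylation passes electrons along complexes I to IV of the inner mitochondrial membrane and makes ATP at complex V. Of 79 nuclear-encoded subunits, 35 rose and 1 fell at 15 mg/kg, with a median log2FC of 0.22. By complex, 20 of 38 rose in complex I, where Ndufv1 fell, 1 of 4 in complex II, 3 of 9 in complex III, 3 of 12 in complex IV and 8 of 16 in complex V. Ndufs4 of complex I was between 107 and 140.3 (median 123) in the control group and between 135 and 233 (median 162) at 15 mg/kg (log2FC 0.41, SE 0.060, adjusted p = 5.44e-06), Uqcrc2 of complex III had a log2FC of 0.28, and Cox7b of complex IV one of 0.50. These 3 were also higher without replicates 4 to 9, with 0.29 (adjusted p = 0.00273), 0.28 (adjusted p = 0.000686) and 0.51 (adjusted p = 0.000686). Ndufv1, the flavoprotein that takes electrons from NADH, was between 307 and 457 (median 379.6) in the control group and between 248 and 384 (median 315) at 15 mg/kg (log2FC -0.27, SE 0.067, adjusted p = 0.00370), and -0.33 (adjusted p = 0.00741) without the 6 mice. Over the list without these mice, 8 members were higher and 5 lower, and the median was 0.021.

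Atp5pf, a coupling subunit of complex V, was among the largest increases (log2FC 0.94, SE 0.17, adjusted p = 0.000169) but had 0.30 (adjusted p = 0.214) without the 6 mice. Of the 13 protein genes encoded by the mitochondrial genome, ND3 and COX2 were higher (0.63 and 0.60) and ND2 and ND4L lower (-0.54 and -0.40). None of these 4 kept an adjusted p under 0.05 without the 6 mice, when they were at -0.032, -0.15, -0.18 and -0.13. With all mice, ND3 had an adjusted p of up to 0.0562 without dosed replicate 5, dosed replicate 6 or dosed replicate 8 and COX2 an adjusted p of up to 0.104 without any 1 of 12 mice. The 22 mitochondrial tRNAs had a median log2FC of -0.35 with all mice, when 0 passed the test in either direction. Without the 6 the median of these tRNAs was 0.59, and 1 was higher and 0 lower. Their direction therefore depended on which mice were counted.

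In the citric acid cycle and pyruvate dehydrogenase, which supply electrons to the respiratory chain, 11 of 24 genes rose and 1 fell, with a median log2FC of 0.13 and of 0.085 without the 6 mice, when 3 were higher and 0 lower. Idh3b and Idh3a, subunits of the NAD-dependent isocitrate dehydrogenase, had a log2FC of 0.47 with and 0.37 without them and of 0.49 with and 0.35 without them, past the test in each case. Idh2, the NADP-dependent enzyme of the same step, was the lower one (-0.29, adjusted p = 0.0196; -0.27, adjusted p = 0.113 without the 6). Among the 38 tested carriers of the inner membrane, 3 rose and 3 fell, and 0 and 2 without the 6. Slc25a22, described above, was the one with the smallest p, and Slc25a5, which exchanges ADP for ATP, went from 0.53 to 0.14 (adjusted p = 0.448).

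**Figure D4:**
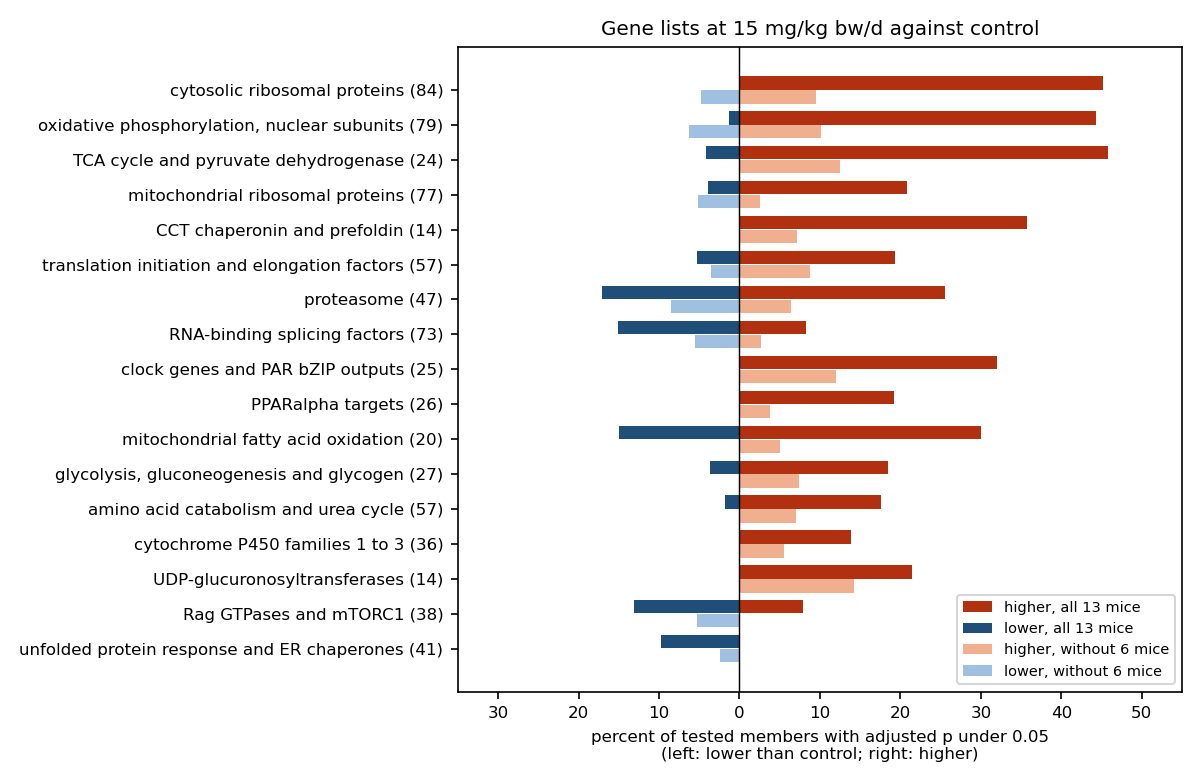
Percent of tested members of 17 gene lists (number of members in brackets) that were higher (right) or lower (left) than control at 15 mg/kg with an adjusted p under 0.05, for all 13 mice and for the 7 mice without replicates 4 to 9. Ribosomal proteins, oxidative phosphorylation and the citric acid cycle extend far to the right with all mice, and most of that length is absent without the 6 mice.

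Protein folding and breakdown moved in both directions. The proteasome, which degrades ubiquitin-tagged proteins, had 12 of 47 genes higher and 8 lower. Its parts differed in their counts, with 8 of 17 core-particle subunits higher and 1 lower, and 3 of 20 regulatory-particle genes higher and 6 lower, although no test was made between them. The 20 were taken by their Psmc and Psmd symbols and include assembly chaperones such as Psmd9. In the core, Psma6 and Psma3 were higher, with a log2FC of 0.36 and 0.44 (0.18 and 0.23 without the 6 mice), and Psmb4 was the lower one, at -0.38 and -0.064 (adjusted p = 0.683) without the 6 mice. Among these 20 genes, Psmd11 was lower in every mouse as given above, and Psmd9, an assembly chaperone, was between 37.5 and 75.1 (median 52.8) in the control group and between 17.7 and 52.9 (median 39.2) at 15 mg/kg (log2FC -0.50, SE 0.11, adjusted p = 0.00125; -0.42, adjusted p = 0.0235 without the 6 mice). Psmc3, an ATPase of the base, fell with all mice (-0.50, adjusted p = 0.0122) and stood at 0.0092 without the 6, all of which lay below every control mouse. Without these mice, 3 members of the whole list were higher and 4 lower.

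The chaperonin CCT folds actin, tubulin and other cytosolic proteins, and 5 of its 14 listed genes with prefoldin rose and 0 fell, and 1 and 0 without the 6 mice. Tcp1 was between 37.4 and 66.5 (median 48.5) in the control group and between 51.4 and 102 (median 72.5) at 15 mg/kg (log2FC 0.48, SE 0.091, adjusted p = 0.000203), and 0.33 (adjusted p = 0.0468) was left without the 6 mice. Cct2, Cct6a and Cct4 had 0.36 with and 0.17 without them, 0.27 with and 0.11 without them and 0.25 with and 0.040 without them. Of 41 heat shock proteins and co-chaperones, 7 rose and 2 fell, and 7 and 0 without the 6 mice. The mitochondrial chaperonin pair stood out among them: Hspe1 was between 255 and 455 (median 301) in the control group and between 314 and 915 (median 486) at 15 mg/kg (log2FC 0.87, SE 0.12, adjusted p = 1.72e-06; 0.41, adjusted p = 0.00360 without the 6) and its partner Hspd1 had a log2FC of 0.25 and 0.26 (adjusted p = 0.0271). These genes overlap on opposite strands. Of 41 genes of the unfolded protein response and chaperones of the endoplasmic reticulum, 0 rose and 4 fell, with a median log2FC of -0.13, and 0 and 1 without the 6 mice. Atf6b, a membrane-bound stress sensor, led them (-0.46, adjusted p = 0.000940; -0.29, adjusted p = 0.135 without the 6).

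RNA-binding splicing factors showed 6 of 73 higher and 11 lower, and 2 and 4 without the 6 mice. Hnrnpk, which binds pyrimidine-rich RNA, was between 81.3 and 147 (median 108) in the control group and between 54.2 and 100.5 (median 81.1) at 15 mg/kg (log2FC -0.46, SE 0.089, adjusted p = 0.000270), and -0.54 (adjusted p = 0.00172) without the 6 mice. Snrnp70, a protein of the U1 particle, and Sf3a2, a protein of the U2 particle, were lower whether or not the 6 mice were counted, at -0.44 with and -0.29 without them and -0.78 with and -0.61 without them. Snrpa1, also of the U2 particle, was higher (0.56), with 0.34 (adjusted p = 0.173) without the 6.

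Amino acid supply reaches the kinase complex mTORC1 at the lysosome through Ragulator and the Rag GTPases. Of 38 tested genes of this machinery, 3 rose and 5 fell, beside 7.58% and 6.62% of all rows, and 0 rose and 2 fell without the 6 mice. Lower DEGs numbered 5 with all mice, 3 with GC and length trends removed and 0 without the 6 mice, beside 1.87% of all rows in the first. The 5 with all mice were Lamtor1, Rraga, Ulk1, Mlst8 and Ddit4. Rraga, which encodes RagA, was between 57.4 and 107 (median 89.1) in the control group and between 34.3 and 73.9 (median 58.7) at 15 mg/kg (log2FC -0.71, SE 0.11, adjusted p = 1.48e-05), and 6 of 13 dosed mice lay under the lowest control mouse. It held without the 6 mice (-0.49, adjusted p = 0.00916), and it was also lower at the other doses against the same control mice (-0.65, adjusted p = 0.00172, at 1.5 and -0.46, adjusted p = 0.0113, at 150 mg/kg). Ulk1, the kinase that starts autophagy, and Mlst8, a subunit shared by both mTOR complexes, had -0.51 and -0.54 with all mice, and -0.32 (adjusted p = 0.121) and -0.35 (adjusted p = 0.141) without the 6. Ddit4, a stress-induced inhibitor of mTORC1, was between 6.84 and 16.8 (median 11.3) in the control group and between 2.04 and 13.2 (median 6.20) at 15 mg/kg (log2FC -0.70, SE 0.19, adjusted p = 0.00697; -0.51, adjusted p = 0.165 without the 6). Rheb, the direct activator of mTORC1, was higher with all mice (0.36, adjusted p = 0.0340), had an adjusted p of up to 0.0873 without any 1 of 9 mice, and was at -0.060 without the 6.

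Of 38 autophagy genes, 4 rose and 3 fell, and 2 and 3 without the 6 mice. Tax1bp1, a cargo receptor, was between 37.4 and 56.7 (median 47.6) in the control group and between 53.2 and 75.2 (median 59.2) at 15 mg/kg (log2FC 0.34, SE 0.055, adjusted p = 1.99e-05), with 0.37 (adjusted p = 0.000276) without the 6 mice. Atg3, which joins lipid to LC3 proteins, was also higher in both fits (0.48 with and 0.37 without them), and Map1lc3a, one of these LC3 proteins, was lower in both fits (-0.36 with and -0.37 without them). In insulin and growth factor signalling, 3 of 28 rose and 3 fell, and 2 and 1 without the 6. Irs1, an adaptor under the insulin receptor, was between 3.82 and 6.23 (median 4.82) in the control group and between 1.90 and 4.97 (median 3.98) at 15 mg/kg (log2FC -0.41, SE 0.10, adjusted p = 0.00433) and -0.63 (adjusted p = 0.000732) without the 6. The kinases Akt1 and Akt2 had -0.31 and -0.28, and -0.19 (adjusted p = 0.159) and -0.22 (adjusted p = 0.191) without the 6. Insr, the insulin receptor, and Grb14, an inhibitor that binds it, were higher (0.24 and 0.33), with 0.18 (adjusted p = 0.199) and 0.32 (adjusted p = 0.0427) without the 6. Igf1, the growth factor that the liver secretes under growth hormone, was between 120.0 and 216 (median 172) in the control group and between 161 and 298 (median 225) at 15 mg/kg (log2FC 0.39, SE 0.083, adjusted p = 0.000867) and 0.45 (adjusted p = 0.00363) without the 6 mice.

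The circadian clock runs on BMAL1 and CLOCK, which drive Per, Cry and Rev-erb genes that repress them in turn, and on the PAR bZIP factors DBP, TEF and HLF, which pass the rhythm to outputs. Of 25 tested genes of the clock and its outputs, 8 rose and 0 fell at 15 mg/kg, 6 of them DEGs, with a median log2FC of 0.28. Without the 6 mice, 3 rose and 0 fell, and the median was 0.16. Usp2, a ubiquitin-specific protease with a strong daily rhythm in liver, was between 2.08 and 56.6 (median 21.2) in the control group and between 23.8 and 72.6 (median 51.2) at 15 mg/kg. It had the largest increase of all DEGs (log2FC 1.37, SE 0.37, adjusted p = 0.00891), the groups overlapped widely, and the value without the 6 mice was 1.49 (adjusted p = 0.0471). Per3 was between 0.883 and 6.95 (median 4.81) in the control group and between 3.54 and 11.7 (median 7.96) at 15 mg/kg (log2FC 0.75, SE 0.19, adjusted p = 0.00555) and Nr1d2, which encodes REV-ERBβ, was between 5.30 and 9.60 (median 7.04) in the control group and between 6.58 and 14.0 (median 10.2) at 15 mg/kg (log2FC 0.42, SE 0.096, adjusted p = 0.00158). Neither log2FC was smaller without the 6 mice, at 0.81 (adjusted p = 0.0361) and 0.47 (adjusted p = 0.00597).

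Dbp was between 13.2 and 124 (median 55.3) in the control group and between 47.4 and 134 (median 91.9) at 15 mg/kg (log2FC 1.00, SE 0.28, adjusted p = 0.0125), and without the 6 mice it had 0.84 (adjusted p = 0.166). Tspan4, Noct and Wee1, listed as outputs of the clock, were higher with all mice (0.58, 0.86 and 0.70) and had 0.28 (adjusted p = 0.329), 0.32 (adjusted p = 0.593) and 0.16 (adjusted p = 0.805) without the 6. Noct and Wee1 had an adjusted p of up to 0.0627 without any 1 of 7 mice and an adjusted p of up to 0.102 without any 1 of 15 mice. Noct, Wee1 and the core genes that did not pass the test were named after their values were seen. Per1, Per2 and Cry1 had a log2FC of 0.40 (adjusted p = 0.0713), 0.28 (adjusted p = 0.37) and -0.27 (adjusted p = 0.309). Clock was at -0.047, Nr1d1 at -0.037, Tef at 0.30 and Hlf at -0.077. Clock genes swing several-fold within a day, and the hour at which each mouse was sampled was not tested.

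Against the same control mice, 0 of the 25 clock genes passed the test at either other dose, where few rows of any kind did (0.700% higher and 0.534% lower at 1.5 mg/kg, 1.43% and 0.683% at 150 mg/kg), so these counts do not set the clock genes apart. Their medians were 0.14 at 1.5 and 0.066 at 150 mg/kg. In the direct contrasts, 4 and 7 of the 25 were higher at 15 than at 1.5 and at 150 mg/kg, beside 11.0% and 10.2% of all rows. In each contrast 0 were lower, beside 10.4% and 9.76%. Without the 6 mice 0 and 3 were higher, beside 2.07% and 3.94%. The median value of Per3 was 4.81 in the control group, 5.72 at the low, 7.96 at the middle and 3.13 at the high dose, and it was higher at 15 than at 150 mg/kg (difference 0.80, adjusted p = 0.00223), also without the 6 mice (0.86, adjusted p = 0.0184). Its contrast with 1.5 mg/kg did not pass the test (0.39, adjusted p = 0.161). For Usp2 the medians were 21.2 in the control group, 41.1 at the low, 51.2 at the middle and 28.9 at the high dose, and neither direct contrast passed the test (0.47, adjusted p = 0.413, and 0.79, adjusted p = 0.13).

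PAR bZIP factors bind a D-box. Its letters TTATGTAA, TTATGCAA or TTACGTAA, searched on both strands of the promoter, were present in 3 of the 19 clock genes with a promoter and in 1.77% of all 8378 genes, beside 7 of 142 higher and 2 of 147 lower DEGs. The E-box CACGTG, which BMAL1 and CLOCK bind, was in 5 of 19 and in 11.9% of all. Per3 (chr4:151044616-151044915, minus strand) held TTATGTAA at 2 places, 205 and 158 bases before its start, shown in capitals.
Per3: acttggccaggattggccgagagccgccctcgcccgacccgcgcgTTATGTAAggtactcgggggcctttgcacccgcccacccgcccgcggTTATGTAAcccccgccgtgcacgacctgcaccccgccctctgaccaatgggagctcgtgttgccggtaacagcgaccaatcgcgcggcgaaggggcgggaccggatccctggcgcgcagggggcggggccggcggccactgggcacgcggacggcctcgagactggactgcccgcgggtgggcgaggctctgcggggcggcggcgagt
The promoter is printed because Per3 was both a DEG and a carrier of 2 such matches. The promoters of Nr1d2, Dbp, Usp2, Noct and Tspan4, which were also higher with all mice, held no D-box. A match says only that the letters are there.

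PPARα target genes differed between the middle and the high dose. At 15 mg/kg, 5 of 26 rose and 0 fell, with a median log2FC of 0.080, and 1 rose and 0 fell without the 6 mice. At 150 mg/kg 19 rose and 0 fell against the same control mice, beside 1.43% and 0.683% of all rows, with a median of 0.78. In the direct contrast, 1 gene was higher at 15 than at 150 mg/kg and 20 were lower, beside 10.2% and 9.76% of all rows, and 0 and 18 without the 6 mice, beside 3.94% and 4.18%. Against 1.5 mg/kg, 4 were higher and 0 lower, beside 11.0% and 10.4% of all rows, and 1 and 0 without the 6, beside 2.07% and 1.95%. Cyp4a10, a fatty acid ω-hydroxylase, had medians of 126 in the control group, 149 at the low, 128 at the middle and 381 at the high dose. Its log2FC at 15 mg/kg was 0.085 (adjusted p = 0.869), with a 95% interval of -0.42 to 0.59, and it differed from 150 mg/kg by -1.67 (adjusted p = 2.63e-06). With the 6 mice left out, its log2FC was 0.065 (adjusted p = 0.942) and the difference -1.69 (adjusted p = 0.000185). Ehhadh, the bifunctional enzyme of peroxisomal β-oxidation, had medians of 14.2 in the control group, 15.2 at the low, 15.1 at the middle and 48.9 at the high dose, a log2FC of 0.019 (interval -0.23 to 0.27) and a difference of -1.52 from 150 mg/kg (adjusted p = 3.97e-13). For the other 7 mice these were -0.040 (adjusted p = 0.92) and -1.58 (adjusted p = 3.17e-10). The dosed mice overlapped the control mice across nearly their whole range for both genes.

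Among the PPARα targets that rose were Fabp1, Hsd17b11, Angptl4 and Slc27a2. Fabp1, the fatty acid carrier of the hepatocyte cytosol, was between 833 and 2925 (median 1949.8) in the control group and between 1795 and 8923 (median 2406) at 15 mg/kg (log2FC 0.87, SE 0.20, adjusted p = 0.00190), but the 6 mice all lay above the highest control mouse, the other 7 reached no higher than 2406 and the value without the 6 was 0.18 (adjusted p = 0.594). Angptl4, a secreted inhibitor of lipoprotein lipase, had medians of 6.72 in the control group, 7.63 at the low, 9.73 at the middle and 18.5 at the high dose and a log2FC of 0.55 at 15 mg/kg (adjusted p = 0.0165; 0.39, adjusted p = 0.202 without the 6). Slc27a2, a transporter and activator of very long fatty acids, was the one that held, with 0.31 (adjusted p = 0.0284) and 0.36 (adjusted p = 0.00872), although the call with all mice was lost without replicate 5 (log2FC 0.25, adjusted p = 0.0802) or 9 (0.29, adjusted p = 0.0538) of the dose group or control replicate 8 (0.27, adjusted p = 0.0585). Hsd17b11, a lipid droplet dehydrogenase, went from 0.39 to 0.25.

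Mitochondrial β-oxidation shortens acyl-CoA in repeated cycles, and 6 of its 20 listed genes rose and 3 fell, and 1 and 0 without the 6 mice. Etfa and Etfb encode the subunits of the protein that takes electrons from the acyl-CoA dehydrogenases. Etfa was between 89.4 and 179.8 (median 124) in the control group and between 121 and 306 (median 175) at 15 mg/kg (log2FC 0.60, SE 0.11, adjusted p = 0.000123), whereas Etfb was lower (log2FC -0.31, SE 0.092, adjusted p = 0.0171). The medium-chain and short-chain dehydrogenases Acadm and Acads were lower too (-0.40 and -0.54), and Eci1, Eci2 and Echs1 higher (0.32, 0.37 and 0.23). Without the 6 mice these 7 genes had 0.20, -0.077, -0.034, -0.056, 0.14, 0.20 and 0.21, and none passed the test. The 6 mice all lay below the lowest control mouse for Acads. Acadm had an adjusted p of up to 0.0843 without any 1 of 7 mice. At 150 mg/kg, 9 of the 20 rose and 0 fell against the same control mice, beside 1.43% and 0.683% of all rows. In the direct contrast 1 was higher at the middle than at the high dose and 10 were lower, beside 10.2% and 9.76% of all rows. Without the 6 mice these were 0 and 14, beside 3.94% and 4.18%. Among 37 peroxisomal genes, 6 rose and 1 fell, and 2 and 0 without the 6. Phyh, which α-hydroxylates branched fatty acids such as phytanic acid, was between 419.7 and 663 (median 559) in the control group and between 468 and 1111 (median 781) at 15 mg/kg (log2FC 0.57, SE 0.10, adjusted p = 7.45e-05) and held at 0.54 (adjusted p = 0.00153). Pex14, of the import machinery, was lower (-0.28; -0.25, adjusted p = 0.0889 without the 6).

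Lists of lipid synthesis, storage and transport came next. Of 26 genes of fatty acid and triglyceride synthesis, 1 rose and 0 fell, and likewise 1 and 0 without the 6 mice. This was, with all mice, Lpin2, a phosphatidate phosphatase, with values between 28.1 and 56.7 (median 41.5) in the control group and between 35.4 and 98.2 (median 58.7) at 15 mg/kg (log2FC 0.50, SE 0.16, adjusted p = 0.0308; 0.71, adjusted p = 0.0227 without the 6 mice), and there was an adjusted p of up to 0.0581 without dosed replicate 10, dosed replicate 13 or control replicate 7. Of 20 genes of lipid droplets and lipolysis, 4 rose and 2 fell, and 1 and 0 without the 6. Ces1d, a lipase of very-low-density lipoprotein assembly, was higher (0.63), and Plin5, which coats lipid droplets, and Lipa, the lysosomal acid lipase, lower (-0.43 and -0.71). Without the 6 mice these had 0.21 (adjusted p = 0.548), -0.33 (adjusted p = 0.161) and -0.48 (adjusted p = 0.209). Of 22 apolipoproteins and assembly factors, 5 rose and 2 fell, and 2 and 1 without the 6. Apoe, the ligand through which remnant particles are taken up, was between 18882 and 26388 (median 22775) in the control group and between 11315 and 22102 (median 15766) at 15 mg/kg (log2FC -0.47, SE 0.073, adjusted p = 1.41e-05), and -0.29 (adjusted p = 0.0124) without the 6. Cholesterol synthesis had 1 of 24 higher and 1 lower, and bile acid synthesis and transport 3 of 23 higher and 1 lower, and without the 6 mice each had 2 higher and 0 lower. Akr1d1, a reductase of bile acid synthesis, led the latter (0.52, adjusted p = 0.00235; 0.42, adjusted p = 0.0837 without the 6).

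Carbohydrate genes included changes that also passed without the 6 mice. Of 27 genes of glycolysis, gluconeogenesis and glycogen, 5 rose and 1 fell, and 2 and 0 without the 6. Gys2, the liver glycogen synthase, was between 15.9 and 42.1 (median 25.9) in the control group and between 28.5 and 76.6 (median 48.7) at 15 mg/kg (log2FC 0.92, SE 0.15, adjusted p = 1.60e-05), and 13 of 13 dosed mice lay above the control median. The groups overlapped, and without the 6 mice the log2FC was 0.73 (adjusted p = 0.00600). The median of Gys2 was 25.9 in the control group, 26.3 at the low, 48.7 at the middle and 27.6 at the high dose, and the direct contrasts were 0.82 (adjusted p = 6.70e-05) against 1.5 and 0.66 (adjusted p = 0.000741) against 150 mg/kg. In the 7 other dosed mice these contrasts were 0.63 (adjusted p = 0.0228) and 0.47 (adjusted p = 0.0691). Fbp1 of gluconeogenesis and Slc37a4, the glucose 6-phosphate transporter, were higher with all mice (0.46 and 0.46) and had 0.18 (adjusted p = 0.24) and 0.27 (adjusted p = 0.282) without the 6. Xylb, of the uronate route, had medians of 13.6 in the control group, 15.8 at the low, 21.5 at the middle and 14.9 at the high dose and was higher at 15 than at 150 mg/kg by 0.54 (adjusted p = 2.41e-06), and by 0.55 (adjusted p = 1.47e-05) without the 6.

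**Figure D5:**
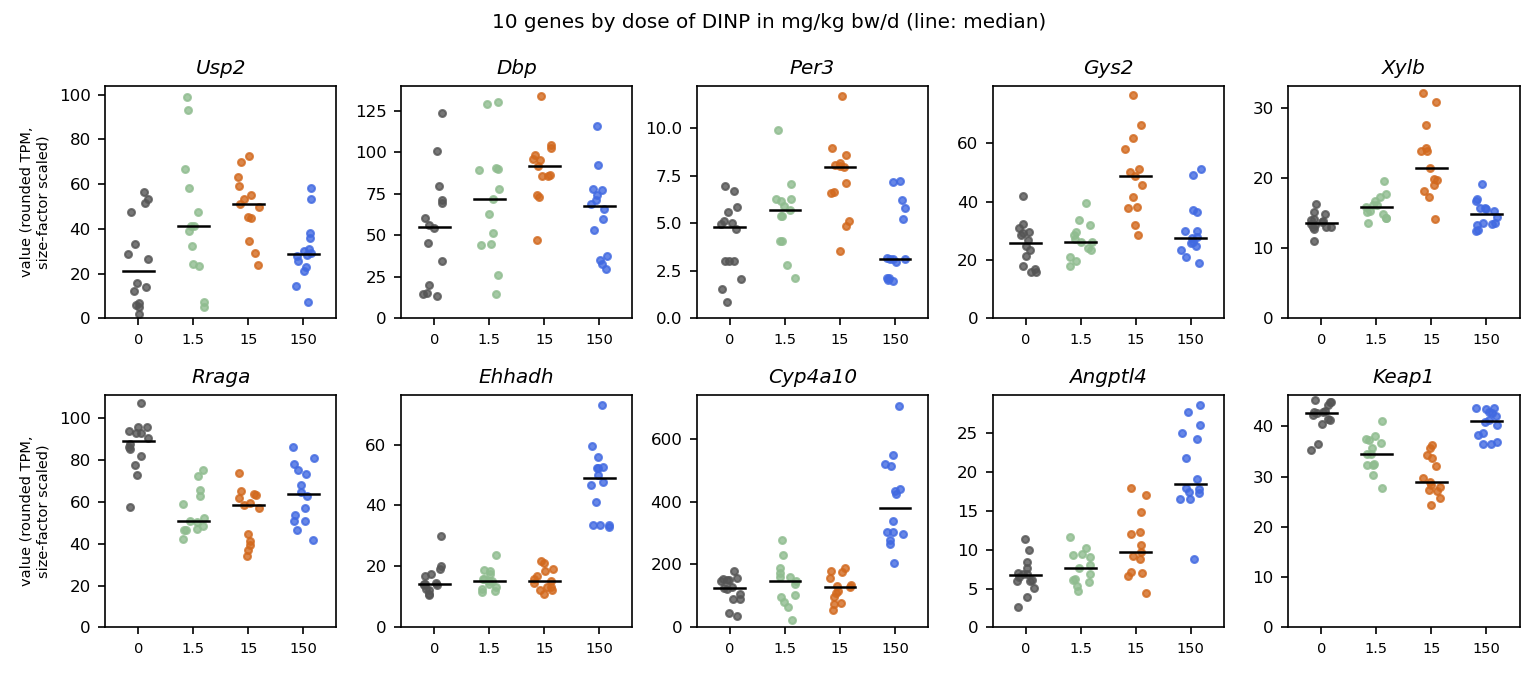
Values (rounded TPM divided by a size factor) of 10 genes in every mouse at 0, 1.5, 15 and 150 mg/kg, with a line at the median of each group. Usp2, Dbp, Per3, Gys2 and Xylb have their highest median at 15 mg/kg and Keap1 its lowest, while Ehhadh, Cyp4a10 and Angptl4 have their highest at 150 mg/kg.

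Amino acid breakdown and the urea cycle had 10 of 57 genes higher and 1 lower, and 4 and 0 without the 6 mice, with medians of 0.095 and 0.083. Otc, which makes citrulline in the urea cycle, was between 91.7 and 167 (median 148) in the control group and between 137 and 245 (median 194) at 15 mg/kg (log2FC 0.42, SE 0.080, adjusted p = 0.000203). Arg1, which releases urea, was between 566 and 909 (median 746) in the control group and between 791 and 1123 (median 911) at 15 mg/kg (log2FC 0.34, SE 0.078, adjusted p = 0.00161). The groups overlapped for both, and without the 6 mice they were at 0.41 (adjusted p = 0.00492) and 0.43 (adjusted p = 0.00376). Bckdhb and Dbt, subunits of the branched-chain ketoacid dehydrogenase, had 0.25 with and 0.28 without them and 0.58 with and 0.40 without them, of which Bckdhb passed the test both times. Ftcd, an enzyme of histidine breakdown, was the gene that fell (-0.69, adjusted p = 0.0277), with an adjusted p of up to 0.0735 without dosed replicate 4, dosed replicate 5, dosed replicate 6, dosed replicate 8 or dosed replicate 9, and it was at 0.078 without the 6.

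Drug-metabolising enzymes of the endoplasmic reticulum and cytosol were next. Among 36 cytochrome P450 genes of families 1 to 3, 5 rose and 0 fell (2 and 0 without the 6 mice), and the median log2FC was 0.20 with all mice and 0.21 without the 6. Cyp2a5, which hydroxylates coumarin, was between 169.7 and 591 (median 350.2) in the control group and between 202 and 1103 (median 587) at 15 mg/kg (log2FC 0.75, SE 0.20, adjusted p = 0.00697), and Cyp2a12 had a log2FC of 0.39. Both were larger without the 6 mice, at 1.00 (adjusted p = 0.00323) and 0.59 (adjusted p = 0.00247). Cyp3a11, a main target of the pregnane X receptor, was between 244 and 699 (median 301) in the control group and between 202 and 1125 (median 373) at 15 mg/kg and did not pass the test (log2FC 0.17, SE 0.19, adjusted p = 0.623), and its log2FC without the 6 mice was of the other sign, at -0.37 (adjusted p = 0.249). Of 14 UDP-glucuronosyltransferases, 3 rose and 0 fell: Ugt3a2 (0.43), Ugt3a1 (0.56) and Ugt1a8 (0.23), with 0.37 (adjusted p = 0.0213), 0.20 (adjusted p = 0.528) and 0.27 (adjusted p = 0.0198) without the 6. The Ugt1a genes share their last exons, so that 3′ reads cannot be assigned between them. Of 30 sulfotransferases and glutathione transferases, 4 rose and 1 fell, and 1 and 1 without the 6. Sult1a1, which sulfates phenols, was between 57.3 and 163 (median 76.4) in the control group and between 96.2 and 205 (median 114) at 15 mg/kg (log2FC 0.65, SE 0.13, adjusted p = 0.000417; 0.53, adjusted p = 0.0293 without the 6), and Gsta4, which detoxifies lipid aldehydes, had 0.86 and 0.54 (adjusted p = 0.104).

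Keap1, the protein that marks NRF2 for degradation, was between 35.3 and 45.2 (median 42.7) in the control group and between 24.3 and 36.2 (median 29.0) at 15 mg/kg (log2FC -0.47, SE 0.056, adjusted p = 7.05e-08), with 11 of 13 dosed mice under the lowest control mouse. It held at -0.34 (adjusted p = 0.000448) without the 6 mice. Of 23 NRF2 targets and related genes, 1 rose and 2 fell (0 and 3 without the 6 mice), and the median was -0.051. The median of Keap1 was 42.7 in the control group, 34.5 at the low, 29.0 at the middle and 41.1 at the high dose, and it was lower at 15 than at 150 mg/kg (difference -0.43, adjusted p = 2.08e-07), also without the 6 mice (-0.29, adjusted p = 0.000836). Txn1, thioredoxin, was higher with all mice (0.53) and at 0.27 (adjusted p = 0.15) without the 6. Of 31 nuclear receptors and partners, 1 rose and 2 fell, and 1 and 1 without the 6. Rxra, the partner of PPARα and other lipid receptors, was between 16.8 and 29.8 (median 25.8) in the control group and between 26.6 and 43.1 (median 34.1) at 15 mg/kg (log2FC 0.43, SE 0.077, adjusted p = 8.13e-05), Rxrb was lower (-0.42), and Thra, a thyroid hormone receptor, was between 5.93 and 13.1 (median 9.48) in the control group and between 4.08 and 8.18 (median 5.84) at 15 mg/kg (log2FC -0.57, SE 0.10, adjusted p = 5.89e-05). Without the 6 mice Rxra and Thra were at 0.38 (adjusted p = 0.00675) and -0.56 (adjusted p = 0.00320), and Rxrb had -0.20 (adjusted p = 0.274). Thra overlaps Nr1d1 on the other strand.

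Marker genes were read for the tissue and for other cells that the lobe could hold. Hepatocyte markers such as Alb and Apoa1 were present in every mouse, with a summed level of 23662 to 47482 in the control group and 29905 to 51062 at 15 mg/kg, and 1 of 7 rose (Ttr) and 0 fell. In bulk tissue, fewer cells of a type and less RNA per cell cannot be told apart. For sinusoidal endothelial cells, 0 of 7 rose and 1 fell, Pecam1 (-0.52; -0.25, adjusted p = 0.195 without the 6), and the summed level was 118.3 to 159.1 in the control group and 101.7 to 143.5 at 15 mg/kg. For Kupffer cells and macrophages, 0 of 11 rose and 1 fell, Csf1r (-0.60; -0.40, adjusted p = 0.242), with sums of 144.8 to 464.6 and 123.2 to 324.3. Markers of stellate cells (7 tested), lymphocytes (4), neutrophils (2), red cells (5), adipocytes (3) and cholangiocytes (2) had 0 genes past the test in either direction, which for the short lists says little. The summed adipocyte markers (3 tested, Cfd, Car3 and Fabp4) were 1041 to 2280 in replicates 4 to 9, 2099 to 3755 in the other 7 dosed mice and 1482 to 3610 in the control group. Such a sum follows its most abundant members and does not stand for each gene. Cfd, Car3 and Fabp4 had a log2FC of -0.35, -0.21 and -0.26 with all mice. Without the 6 they had -0.75, 0.066 and -0.53, and none passed the test in either fit. The neutrophil marker Camp and the pancreatic markers Cela3b and Ctrb1 were listed at 0 in all 27 mice. Of the 8 pancreatic markers 4 had no row, and only Cela1 was tested. It was present in every mouse, between 15.9 and 46.2 in the control group and between 13.3 and 75.5 at 15 mg/kg. Its log2FC was 0.10 (adjusted p = 0.819) with all mice and 0.57 (adjusted p = 0.186) without the 6. Several sums reached higher in replicates 4 to 9 than in the other mice, and others did not. A highest value can come from 1 mouse. The summed markers of T, NK and B cells reached 174.6 in these 6 mice, 74.5 in the other 7 dosed mice and 129.2 in the control group, those of neutrophils 39.0, 15.3 and 23.7, and those of stellate cells 486.5, 335.9 and 471.7. The summed cholangiocyte markers reached 254.3 in 1 of replicates 4 to 9, against at most 32.4 in the other 7 dosed mice and at most 152.9 in the control group. Red cell markers reached 1590 in the 6 mice, 1806 in the other 7 dosed mice and 3014 in the control group. Those of macrophages reached 324.3, 258.8 and 464.6. The lowest neutrophil sum, 4.97, was also in the 6 mice (5.03 in the other 7, 6.04 in the control group). Csf1r, Pecam1 and the zonal genes below were named after their values were seen. The part of other cells in the results was not tested.

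Of 8 periportal markers, 2 rose, Arg1 and the droplet protein Hsd17b13 (0.39, with an adjusted p of up to 0.0758 without dosed replicate 5, dosed replicate 7 or control replicate 7), and 0 fell. Once the 6 mice were left out, Arg1 and Ass1, both of the urea cycle, passed the test and Hsd17b13 did not: Ass1 went from 0.41 (adjusted p = 0.0563) to 0.65 (adjusted p = 0.0163), and Hsd17b13 was then at 0.26 (adjusted p = 0.327). The 8 periportal markers had sums of 1960 to 3274 in the control group and 2533 to 3726 at 15 mg/kg. Of 9 pericentral markers, Rgn, which hydrolyses gluconolactone, rose (0.38; 0.31, adjusted p = 0.138 without the 6 mice) and 0 fell. Glul and Cyp2e1, which define the pericentral zone, were at 0.095 and 0.18 with an adjusted p of 0.544 and 0.581.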

How the data were processed

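Liver RNA of 54 mice was sequenced by the authors as 3′ mRNA-Seq libraries, and the reads were processed with STAR, RSEM and Salmon on GRCm38, as the submitters' notes and the study's methods state. The deposited table holds 1 signal value per mouse for 20162 rows (20143 symbols), which the authors had scaled between mice: in each mouse the values are whole multiples of 1 step, and were read as a rounded TPM scaled by a size factor. They are not reads, so no count test was used, and the sequencing depth is unknown. Every sample column was assigned to its group from the labels, and 0 columns were left without a sample.

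The log2(value + 1) of the 11423 rows averaging 1 or more over the 27 mice was fitted by limma 3.58.1 under R 4.3.3, with 1 mean for each of the 4 groups of the 54 mice and moderation along an intensity trend. p-values were adjusted by Benjamini-Hochberg. The replicate numbers were not used to pair mice. Positions and overlaps are from GENCODE M21 on GRCm38, matched by symbol for 19137 symbols and by a synonym for 330. Promoters are from RefSeq (GRCm38.p6). Depth measures were compared with Python 3.11.15 and scipy 1.17.1. The pipeline was tested on simulated data.

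The members and the 50 gene lists were chosen with earlier results of these data known. Named genes were the 10 DEGs with the largest log2FC in each direction, the 12 with the smallest p in each direction (mean of at least 5, no predicted genes), up to 5 members per list and direction with an adjusted p under 0.05, and genes that the study names for this dose. Others are said to be chosen after their values were seen, or are members of a described list. Alternatives were pseudocounts, filters, scalings, other tests and weights, a replicate block, each mouse left out, trends on GC content and length and, chosen after seeing the data, the mice that stood apart left out. Some genes that the rule selected are not reported here.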

Additional observations from a re-analysis of the deposited data

How the results depend on the processing

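The 427 DEGs of 15 mg/kg against control (213 higher, 214 lower) became 202 (117, 85) with the Wilcoxon rank-sum test, 222 (131, 91) with array quality weights, 190 (116, 74) with a pseudocount of 5 and 1622 (866, 756) without a log2FC threshold, and, chosen after seeing the data, 155 (84, 71) without replicates 4 to 9 and 140 (77, 63) without all 8 mice above 20 on the first component. The total was 357 with GC and length trends removed, 341 with the groups fitted alone, 408 with group medians, 366 with a mean of at least 5, 411 with quantile normalization, 427 with a robust eBayes, 572 with a pseudocount of 0.1, 425 without a filter and 427 with each median difference set to 0. Against 1.5 mg/kg, the 809 DEGs became 414 with array weights, 440 with a pseudocount of 5, 123 without the 6 mice and 140 without the 8. Against 150 mg/kg, the 768 became 494, 384, 318 and 320. Without 1 dosed mouse at a time there were 295 to 560 DEGs (158 to 278 higher, 132 to 282 lower), the 132 without replicate 8, and without 1 control mouse 378 to 521 (192 to 249, 183 to 272). Without replicates 4 to 9, 11 named genes changed sign: Fdx2 (-0.11), Gm12693 (0.096), Psmc3 (0.0092), Dnajc7 (0.028), Rheb (-0.060), ND3 (-0.032), COX2 (-0.15), Ftcd (0.078), F9 (0.051), B2m (-0.095) and Tap2 (0.038). Without all 8 mice, 5 did: Fdx2 (-0.035), Rheb (-0.014), COX2 (-0.072), F9 (0.036) and B2m (-0.030). The fits without these mice hold fewer animals, and the cause was not tested. Of the 293 named genes, 93 kept their direction and side of the threshold without the 6 mice and 189 no longer passed it. Without the 8 mice 98 kept both, and with the other alternatives 165 (Wilcoxon) to 293 (robust eBayes). Over each mouse left out in turn, 7302 values kept both and 602 no longer passed the threshold. Between the control group and 15 mg/kg, the deviations of mice with the same replicate number had a mean correlation of -0.020 (-0.346 to 0.158), 3 of 13 pairs were above 0.1 and 2 of 13 correlated best with their own number. These values showed no pairing by number, but they cover only these groups, and no test of pairing was made. The replicate block gave 410 DEGs (202 higher, 208 lower), with 788 against the low and 759 against the high dose. Genes at 5 or more per mouse did not differ beyond the spread (2-sided permutation test, p = 0.604). The files do not keep the depth, so no limit of detection can be set for rows at low values.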

Other observations

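Counts for secreted proteins of the liver are read beside 7.58% higher and 6.62% lower of all rows. Without replicates 4 to 9 these shares were 2.64% and 2.59%. Of 45 genes of complement and coagulation, 7 rose and 3 fell, with a median log2FC of 0.058, and 7 rose and 0 fell without replicates 4 to 9. Hc, which encodes C5, was higher in both fits (0.26 with and 0.36 without them, the 6 mice being replicates 4 to 9), and the coagulation factors F12 and F9 were lower with all mice (-0.18 and -0.28; -0.099 and 0.051 without the 6), F9 with an adjusted p of up to 0.0869 without any 1 of 8 mice. Of 42 acute phase genes, 4 rose and 4 fell, and 1 and 3 without the 6. Itih4 had a log2FC of 0.40 and 0.33 (adjusted p = 0.0436), while Lrg1, a glycoprotein induced by interleukin signalling, was between 319 and 534 (median 388) in the control group and between 214 and 362 (median 291) at 15 mg/kg (log2FC -0.47, SE 0.092, adjusted p = 0.000306; -0.42, adjusted p = 0.0115 without the 6). Stat3, the transcription factor of that response, was lower too (-0.32 with and -0.37 without them). Of 26 genes of iron and heme, 5 rose and 0 fell, and without the 6 mice 2 rose and 3 fell. Blvra, which reduces biliverdin, and Ireb2, an iron sensor, held without the 6 mice (0.46 with and 0.50 without them and 0.41 with and 0.60 without them), and Alad, of heme synthesis, did not (0.38; 0.17, adjusted p = 0.28).

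Of 53 lysosomal genes, 4 rose and 6 fell, beside 7.58% and 6.62% of all rows, and 0 rose and 6 fell without the 6 mice, beside 2.64% and 2.59%. Neu1, a sialidase, was between 10.1 and 16.1 (median 13.0) in the control group and between 7.16 and 13.2 (median 9.73) at 15 mg/kg (log2FC -0.38, SE 0.073, adjusted p = 0.000209; -0.34, adjusted p = 0.00927 without the 6). The extracellular matrix had 1 of 34 higher (Fn1, 0.21, with an adjusted p of up to 0.0595 without dosed replicate 8 or control replicate 9) and 1 lower (Timp2, -0.56, with an adjusted p of up to 0.0620 without dosed replicate 5, dosed replicate 8, control replicate 8 or control replicate 9), with a median log2FC of -0.22 with all mice and -0.23 without the 6. Of 19 immediate early genes, 0 rose and 2 fell, Jund (-0.47 with and -0.42 without them) and Klf2 (-0.35, with an adjusted p of up to 0.0839 without any 1 of 11 mice), with a median of -0.23. In the cell cycle list, 2 of 30 rose and 2 fell (0 and 1 without the 6), and Ccnd3, a D-type cyclin, was between 23.1 and 31.8 (median 26.0) in the control group and between 17.1 and 23.9 (median 20.1) at 15 mg/kg (log2FC -0.38, SE 0.072, adjusted p = 0.000209; -0.43, adjusted p = 0.00214). Of 23 aminoacyl-tRNA synthetases and their partners, 4 rose and 2 fell, and 4 and 0 without the 6 mice. Mars1 and Nars1 were also higher without the 6 mice (0.43 with and 0.49 without them and 0.39 with and 0.60 without them). Aimp1, a scaffold of the synthetase complex, was lower (-0.60; -0.28, adjusted p = 0.0907). Major urinary proteins, which are near-identical copies and cannot be separated by 3′ reads, had 1 of 28 higher and 0 lower, with a median of 0.047 with all mice and 0.70 without the 6. In the interferon and antigen presentation list, 2 of 43 rose and 4 fell, and without the 6 mice 0 and 0.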
